A study of Mus musculus with 24 samples.

Results

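Genes of monocytes, macrophages and Kupffer cells, 31 in number, were followed in liver and bone marrow after blood loss. They were found by gene name in the scanner files of the arrays, and 31 of 31 have at least 1 probe among the 37008 gene names measured. By role they comprise 8 monocyte genes, 7 genes of macrophages in general, the 3 chains of complement C1q, 7 clearance and scavenger receptors of resident macrophages, 3 genes of erythroblastic island macrophages, 2 Kupffer cell genes and the phospholipase gene Pla2g2d. The mice were males of the genotype Erfe-/-, which lack erythroferrone, a hormone that erythroblasts release after bleeding and that lowers hepcidin in the liver. Each tissue has 3 groups of 4 arrays: 0 h, labelled as control, and 24 and 48 h after phlebotomy. All 6 groups carry the Erfe deletion, no wild-type group is among them, and strain and age are not given in the sources used here. Levels are on a log2 scale, with 0 set at the 75th percentile of each array's signal, and they compare arrays for 1 probe, never 1 gene with another.

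Circulating monocytes arise in the marrow and carry the chemokine receptor Ccr2 and the surface protein Ly6c2, while most resident macrophages of liver and marrow renew themselves locally. In marrow, resident macrophages form the centre of erythroblastic islands: they hold maturing erythroblasts through Vcam1, carry the sialic acid receptor Siglec1, and engulf the nuclei that erythroblasts expel. Spic, a transcription factor, is needed for the development of the macrophages that digest old red cells in spleen and marrow. Kupffer cells are the resident macrophages of the liver sinusoids, where they clear blood-borne particles and aged red cells, and Clec4f and Vsig4 mark them.

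An array reads each gene through probes of 60 bases. Those printed here read 2 C1q chains, the island gene Spic, both Kupffer genes and the clearance receptor Folr2, whose marrow values depend on the array with liver RNA described below. They are given 5′ to 3′ as in the scanner files, in lower case with no part marked:
C1qa probe A_51_P181451, chromosome 4: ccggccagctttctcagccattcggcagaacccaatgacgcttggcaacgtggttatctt
C1qb probe A_51_P351860, chromosome 4: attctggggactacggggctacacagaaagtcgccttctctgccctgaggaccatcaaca
Spic probe A_51_P389885, chromosome 10: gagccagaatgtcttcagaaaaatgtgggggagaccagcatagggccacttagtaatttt
Clec4f probe A_51_P271865, chromosome 6: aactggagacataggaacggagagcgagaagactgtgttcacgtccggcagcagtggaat
Vsig4 probe A_51_P128834, chromosome X: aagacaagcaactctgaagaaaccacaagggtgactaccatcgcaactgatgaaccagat
Folr2 probe A_51_P162671, chromosome 7: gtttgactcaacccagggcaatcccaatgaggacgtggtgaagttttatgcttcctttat

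The probe positions in the files are on the mouse assembly mm9, from 136452409 to 136452468 for C1qa, 136436578 to 136436637 for C1qb, 88138053 to 88138112 for Spic, 83595281 to 83595339 for Clec4f, 93443157 to 93443216 for Vsig4 and 108988771 to 108988830 for Folr2. Whether they lie in coding or untranslated exon was not analysed here. Upstream sequence was matched in RefSeq (GRCm38.p6) for 25 of the 31 members, and the 250 bases before the start were searched on both strands for GAGGAA, the core bound by the macrophage factor PU.1 and its relative Spi-C, and for TGCTGA, the half-site of Maf factors. The motifs do not overlap each other in the sequences printed. GAGGAA stood in 12 of the 25 and TGCTGA in 8, against 23.3% and 16.1% of the 32851 promoters in the table. Capitals mark matches on either strand in the promoters of 3 genes that lay lower together in marrow at 24 h and of both Kupffer genes, given on the gene's own strand:
C1qb chr4:136886201-136886450, minus strand: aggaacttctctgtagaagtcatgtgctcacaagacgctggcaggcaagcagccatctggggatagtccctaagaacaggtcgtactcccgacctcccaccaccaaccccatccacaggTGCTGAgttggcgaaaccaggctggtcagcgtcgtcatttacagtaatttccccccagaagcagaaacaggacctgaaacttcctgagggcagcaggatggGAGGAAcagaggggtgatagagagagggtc
C1qc chr4:136892915-136893164, minus strand: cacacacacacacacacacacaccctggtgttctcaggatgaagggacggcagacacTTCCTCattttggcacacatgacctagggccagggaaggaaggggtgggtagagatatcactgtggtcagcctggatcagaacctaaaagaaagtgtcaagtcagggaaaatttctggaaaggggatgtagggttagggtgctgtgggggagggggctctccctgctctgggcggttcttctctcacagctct
Spic chr10:88683024-88683273, minus strand: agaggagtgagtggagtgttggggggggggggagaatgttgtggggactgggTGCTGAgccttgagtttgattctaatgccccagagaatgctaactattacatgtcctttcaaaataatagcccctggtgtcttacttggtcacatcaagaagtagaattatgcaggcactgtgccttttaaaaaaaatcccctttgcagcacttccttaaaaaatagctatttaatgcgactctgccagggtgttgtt
Clec4f chr6:83656117-83656366, minus strand: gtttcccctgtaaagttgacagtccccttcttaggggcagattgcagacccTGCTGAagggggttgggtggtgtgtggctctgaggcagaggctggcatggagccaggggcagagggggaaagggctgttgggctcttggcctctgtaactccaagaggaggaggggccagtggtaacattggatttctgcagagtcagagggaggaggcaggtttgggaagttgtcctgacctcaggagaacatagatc
Vsig4 chrX:96293439-96293688, minus strand: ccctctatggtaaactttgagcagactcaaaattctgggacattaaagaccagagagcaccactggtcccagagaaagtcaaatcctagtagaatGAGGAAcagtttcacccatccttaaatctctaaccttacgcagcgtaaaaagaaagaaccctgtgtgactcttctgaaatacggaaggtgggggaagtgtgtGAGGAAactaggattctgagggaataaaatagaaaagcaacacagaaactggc

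C1qb holds 1 match to each motif, C1qc 1 to GAGGAA, Spic and Clec4f 1 each to TGCTGA, and Vsig4 2 to GAGGAA. Matches are descriptions of these windows and not binding sites.

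The 75th percentile of signal was 361 to 473 intensity units on liver arrays and 715 to 955 on marrow arrays, and 28013 to 35700 of 56605 probes were well above background. One array stands apart. On marrow 24 h replicate 2, the median of 8 hepatocyte genes was 17.6% of their mean level in liver, whereas on the other 11 marrow arrays it was 0.00154% to 0.0378%. That array also carries liver macrophage genes, so the main counts of members at 24 h in marrow and the changes of the genes described there are given with and without it. Arrays lay on 3 slides. In whole tissue, fewer cells of a type and less RNA per cell cannot be told apart.

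**Figure D1:**
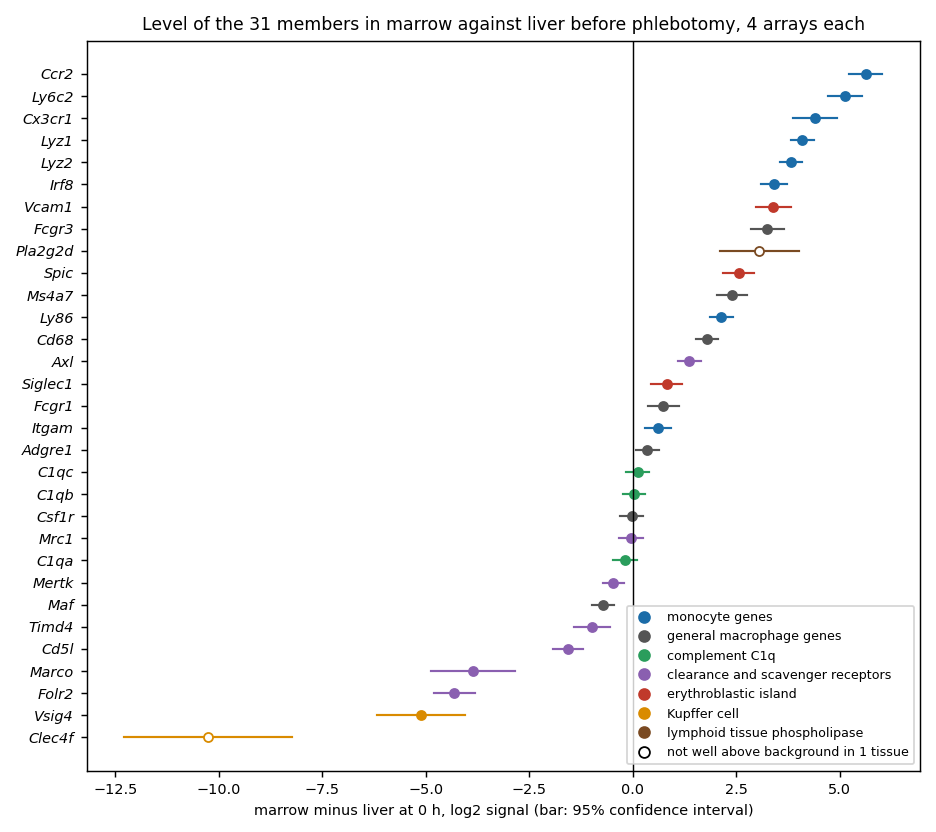
Difference in level between marrow and liver at 0 h for each of the 31 genes, in log2 signal, with 95% confidence intervals from limma; 4 arrays per tissue, colour gives the role and open circles mark genes not well above background in 1 tissue. Monocyte and island genes lie to the right of 0 (higher in marrow), Kupffer genes far to the left, and the C1q chains at 0.

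Before phlebotomy the monocyte genes were higher in marrow and the Kupffer genes higher in liver. Of the 31 members, 26 differed in level between the tissues (limma, adjusted p under 0.05), 18 higher in marrow and 8 higher in liver. Most genes do so: 80.2% of the 22781 genes tested over both tissues passed, 39.6% higher in marrow and 40.6% higher in liver, so the count says little about the members. The direction followed the role for the monocyte, island and Kupffer genes. All 8 monocyte genes were higher in marrow, with a median difference of 3.96, and all 3 island genes were higher in marrow, with a median of 2.56, against -0.03 for all genes. The 10 neutrophil and 6 B-cell marker genes were all higher in marrow too, with medians of 9.92 and 5.29. Their cells' part in the monocyte values was not tested.

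Ccr2, the receptor that lets monocytes leave the marrow, lay at 2.81, 2.35, 2.82 and 2.39 on the marrow arrays at 0 h and at -3.14, -3.12, -2.84 and -3.07 on the liver arrays. The tissues are far apart, and the difference of 5.63 (SE 0.19) is 49.6-fold. Ly6c2, the monocyte form of the Ly6C antigen, was higher in marrow by 5.12 (SE 0.20), and Cx3cr1, the fractalkine receptor of patrolling monocytes, by 4.41 (SE 0.26). Lyz1 and Lyz2, the lysozymes, were higher by 4.10 and 3.82, though their probes read near-identical genes and may share signal. Itgam, the integrin Cd11b, differed least of the group, by 0.61 (SE 0.15, adjusted p 0.00120).

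The island genes were higher in marrow by different amounts. Vcam1, the adhesion molecule that binds erythroblasts, was higher by 3.40 (SE 0.21), Spic by 2.56 (SE 0.18) and Siglec1 by 0.82 (SE 0.18). Both Kupffer genes and 5 of 7 clearance receptors were called higher in liver, while Axl, a receptor kinase for dying cells, was called higher in marrow by 1.37 (SE 0.13). Clec4f, the Kupffer cell lectin, lay at 4.33, 3.78, 4.13 and 4.02 in liver at 0 h and was well above background on 0 of 4 marrow arrays, so its liver level was at least 618-fold higher (adjusted p 4.06e-09). Vsig4, a complement receptor of Kupffer cells, was lower in marrow by 5.12 (34.8-fold), Folr2, a folate receptor of resident macrophages, by 4.31 (19.8-fold), and Marco, a scavenger receptor for particles, by 3.86 (14.5-fold).

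The general macrophage genes were not level between the tissues: 5 of 7 were called higher in marrow, among them Fcgr3, an antibody receptor, by 3.25 (9.52-fold), Ms4a7 by 2.39 and the lysosomal Cd68 by 1.80, and Maf was called lower by 0.72. The C1q chains, Csf1r and Mrc1 were not called. C1qa, C1qb and C1qc, the chains of the complement recognition protein C1q, differed between tissues by -0.20, 0.03 and 0.11, within the spread between arrays (adjusted p 0.198 to 0.826). Csf1r, the receptor for the growth factor that keeps macrophages alive, differed by -0.03 (95% interval -0.30 to 0.24), and Mrc1, the mannose receptor, by -0.04. The levels rest on scaling across tissues: with quantile normalization Csf1r was called 0.52 higher in marrow, and Mrc1 and C1qa also changed sign. With normexp background correction the median of all genes moved from -0.03 to -0.25, and Csf1r (0.07) and Mrc1 (0.05) changed sign. Cd5l, a secreted protein of resident macrophages, was lower in marrow by 1.57 (SE 0.18) and Timd4, a receptor for dying cells, by 0.98 (SE 0.21).

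In marrow 24 h after phlebotomy Pla2g2d and Ms4a7 were called lower and no other member passed the test. Both calls were lost without marrow 24 h replicate 2. The median change was -0.55 for the island genes, -0.42 for the C1q chains, -0.38 for the clearance receptors and -0.05 for the monocyte genes, and the contrast between these groups was not tested. Of the 31 members, 30 were tested in marrow (Clec4f was not well above background on all arrays of any group). Of these, Vsig4 was below that level on 1 array at 48 h and the rest were above it on every marrow array. limma called 2 of 30, both lower: Pla2g2d and Ms4a7. Over all 21399 genes 1.01% were called, 0.463% lower (118 higher and 99 lower; 92 and 50 with each array's median as the scale). The 4 arrays at 24 h lay entirely below the 4 at 0 h for 15 of 30 members and above for 0 of 30, against 4.13% of all genes below and 4.15% above. The median change of the members was -0.28, and 26 of 30 were negative; over all genes the median was -0.02. With each array's median as the scale, 9 members did not overlap and 23 of 30 changes were negative. The median over all genes was then 0.04, and the share of all genes without overlap was not computed on that scale.

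Without marrow 24 h replicate 2, 0 members were called, the median change was -0.26 and 17 of 30 members lay below all arrays at 0 h, against 5.14% of all genes. Calls over all genes also fell without it, from 217 of 21399 to 135 of 21505 (86 higher and 49 lower), and their median change was 0.005. The comparison within slides keeps that array. There, 19 of 30 members were lower at 24 h on each of the 3 slides, against 21.7% of all genes. Higher on each were 0 of 30, against 13.1%. On slide 2, marrow 24 h replicate 2 is the only array at 24 h and marrow 0 h replicate 3 the only one at 0 h. The second slide value of each gene is thus the difference between those arrays. The changes of Siglec1 on the 3 slides were -0.56, -0.84 and -1.01, and those of Spic -0.15, -0.68 and -0.96.

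**Figure D2:**
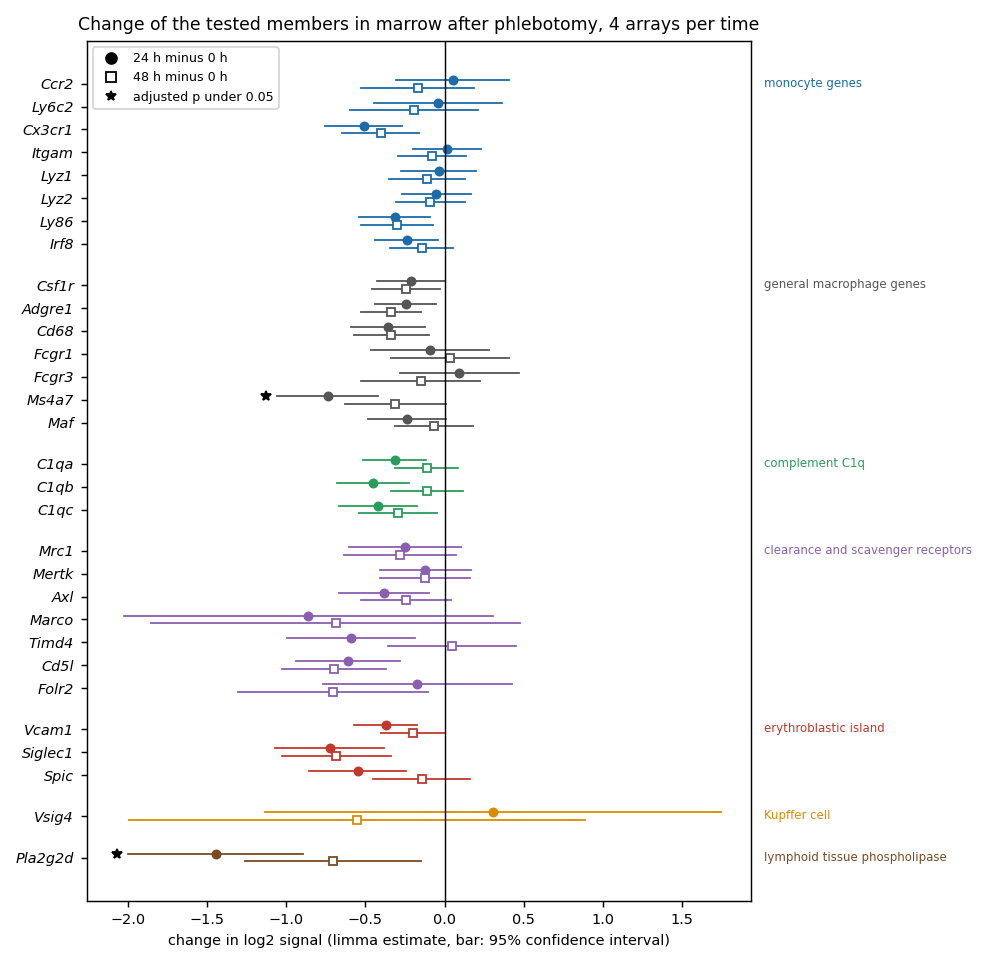
Change in log2 signal in marrow at 24 h (filled circles) and 48 h (open squares) against 0 h for the 30 tested genes by role, limma estimates with 95% confidence intervals from 4 arrays per time; stars mark adjusted p under 0.05. Island, C1q and several receptor genes lie left of 0 at 24 h, while Ccr2, Ly6c2, Itgam, Lyz1 and Lyz2 sit close to it.

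The 3 island genes had a median change of -0.55 at 24 h. Spic lay at 1.88, 2.13, 2.09 and 2.54 at 0 h and at 1.86, 1.42, 1.43 and 1.73 at 24 h. The groups do not overlap, though 1 array at 24 h nearly reaches the lowest at 0 h. The change was -0.55 (SE 0.14, adjusted p 0.103; exact two-sided permutation p 0.0286, the smallest that 4 against 4 arrays can give), and without marrow 24 h replicate 2 it was -0.48.

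Vcam1 lay at 4.52, 4.65, 4.66 and 4.76 at 0 h and at 4.37, 4.11, 4.28 and 4.36 at 24 h. All 4 arrays at 24 h are below all 4 at 0 h, by a small margin. The change was -0.37 (SE 0.09, adjusted p 0.0898), that of its dimmer probe was -0.33, and without marrow 24 h replicate 2 it was -0.31. Vcam1 is also made by marrow stroma and endothelium. The 6 tested of 7 stromal genes had a median change of -0.23. Their summed linear signals were 198 to 319 at 24 h against 309 to 345 at 0 h. The lowest sum, 198, was on marrow 24 h replicate 2, and the other arrays at 24 h had 280 to 319. The part of these genes in the Vcam1 result was not tested.

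Siglec1 lay at -1.86, -1.25, -1.45 and -1.03 at 0 h and at -2.12, -2.29, -2.11 and -1.97 at 24 h. No array at 24 h reaches those at 0 h, and the change was -0.72 (SE 0.16, adjusted p 0.0592). Its second kept probe, A_66_P115114, gave a change of 0.10, from -3.72, -3.63, -3.93 and -3.15 at 0 h to -4.00, -3.57, -4.14 and -2.33 at 24 h. The probes thus disagree, the second being dimmer and more scattered, and with the mean of both the change was -0.31. The brighter probe gave -0.67 (adjusted p 0.128) without marrow 24 h replicate 2. The direction for Siglec1 rests on the brighter probe.

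C1q chains had a median change of -0.42 and did not overlap for any of the 3 genes. C1qb lay at 1.94, 1.83, 1.80 and 1.92 at 0 h and at 1.59, 1.17, 1.34 and 1.57 at 24 h. Arrays at 0 h are tightly grouped and all above those at 24 h. Its change was -0.45 (SE 0.10, adjusted p 0.0739), that of C1qc -0.42 (adjusted p 0.116) and that of C1qa -0.31 (adjusted p 0.153). On the 3 remaining arrays at 24 h they were -0.37 for C1qb, -0.38 for C1qc and -0.25 for C1qa. In macrophages the 3 chains are made together and assembled into 1 protein, and their genes lie side by side on chromosome 4.

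All 7 clearance and scavenger receptors had negative changes, with a median of -0.38, and 3 of them did not overlap. Timd4 lay at -2.27, -1.85, -1.79 and -1.54 at 0 h and at -2.67, -2.55, -2.30 and -2.28 at 24 h, a change of -0.59 (SE 0.18, adjusted p 0.191). The gap between the groups is narrow. Cd5l lay at 3.27, 3.41, 3.50 and 3.66 at 0 h and at 2.90, 3.05, 2.58 and 2.87 at 24 h, a change of -0.61 (SE 0.15, adjusted p 0.0926). The arrays at 24 h are lower by a clear margin. Axl had a change of -0.38 without overlap, while its relative Mertk had one of -0.12 with overlap, and Mrc1 one of -0.25. Leaving out the array with liver RNA gave -0.56 for Timd4, -0.68 for Cd5l, -0.35 for Axl, -0.11 for Mertk and -0.25 for Mrc1.

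Marco and Folr2 cannot be read at 24 h without regard to the array that holds liver RNA. Marco lay at -1.45, -0.49, -0.60 and -0.06 at 0 h and at -1.68, -0.15, -2.12 and -2.08 at 24 h. Replicate 2, the second value, is the high one. Its change was -0.86 (adjusted p 0.541) with that array and -1.31 (adjusted p 0.287) without it. Folr2 went from -0.17 with the array to -0.47 without it.

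Among the 7 general macrophage genes, Ms4a7 fell and the Fc receptors did not differ beyond the spread between arrays. Ms4a7, a tetraspan membrane protein of macrophages, lay at 1.64, 1.76, 1.76 and 1.83 at 0 h and at 1.42, 0.72, 0.81 and 1.10 at 24 h. Replicate 1 is the highest of the later arrays and still below all at 0 h. It fell by 0.74 (SE 0.15, 1.67-fold, limma adjusted p 0.0398), and its other probe had a change of -0.62. Without marrow 24 h replicate 2 the change was -0.64 and no longer called (adjusted p 0.0863), and leaving out any 1 of 9 other marrow arrays also ended it (adjusted p 0.0529 to 0.122), the exceptions being 24 h replicate 1 and 48 h replicate 3. Blocking on the slide gave an adjusted p of 0.0942, and the call held in 8 of 23 alternatives.

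Cd68, a lysosomal protein, went from 3.84 ± 0.05 to 3.48 ± 0.19 (SD, n = 4), and Adgre1, the F4/80 antigen, from 2.42 ± 0.12 to 2.17 ± 0.08, both without overlap. Their changes were -0.36 (adjusted p 0.168) and -0.25 (adjusted p 0.259). For Csf1r the change was -0.21, and 3 of 4 arrays lay under the 0 h range. Fcgr3 and Fcgr1, receptors for antibody, had changes of 0.09 and -0.09 (95% intervals -0.28 to 0.47 and -0.47 to 0.28), and Maf, a transcription factor of resident macrophages, one of -0.24 with overlap. When the array with liver RNA was left out the changes were -0.27 for Cd68, -0.22 for Adgre1, -0.16 for Csf1r, 0.19 for Fcgr3, -0.03 for Fcgr1 and -0.27 for Maf.

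The 8 monocyte genes split. Ccr2 lay at 2.81, 2.35, 2.82 and 2.39 at 0 h and at 2.88, 2.46, 2.85 and 2.38 at 24 h, and Ly6c2 at 7.56, 7.10, 7.32 and 7.13 and then at 7.29, 6.93, 7.57 and 7.16. The ranges of both times cover each other. The changes were 0.05 for Ccr2 (95% interval -0.31 to 0.41) and -0.04 for Ly6c2 (-0.45 to 0.36). Itgam, Lyz1 and Lyz2, which neutrophils also express, had changes of 0.01, -0.04 and -0.05. With the array with liver RNA left out the changes were 0.11 for Ccr2, 0.06 for Ly6c2, 0.07 for Itgam, 0.01 for Lyz1 and 0.00 for Lyz2. Intervals of this width leave room for changes as large as some of those described above.

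Cx3cr1 and Ly86 lay lower. Cx3cr1 was at 1.92, 1.98, 2.14 and 1.98 at 0 h and at 1.64, 1.36, 1.68 and 1.30 at 24 h, with no overlap. The change was -0.51 (SE 0.11, adjusted p 0.0586), and its other probe gave -0.52. Over 23 alternative settings its adjusted p ran from 0.0251 to 0.285, with 7 under 0.05. Ly86, the partner protein of a B-cell and macrophage receptor, had a change of -0.32 (adjusted p 0.216) without overlap. Irf8, a transcription factor of monocytes, dendritic cells and B cells, had one of -0.24 (adjusted p 0.298), with 3 of 4 arrays below those at 0 h. The changes without marrow 24 h replicate 2 were -0.47 for Cx3cr1, -0.25 for Ly86 and -0.16 for Irf8.

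Pla2g2d, a secreted phospholipase of dendritic cells and macrophages in lymphoid tissue, had the largest change of the members tested. It lay at -3.27, -2.53, -2.95 and -2.78 at 0 h, at -4.33, -4.75, -4.28 and -3.96 at 24 h and at -3.07, -3.94, -4.10 and -3.24 at 48 h. The arrays at 24 h are all below those at 0 h, and at 48 h 2 of 4 lie within the range of 0 h. At 24 h it fell by 1.45 (SE 0.25, 2.73-fold, adjusted p 0.0217), and its other kept probe had a change of -0.81. Without marrow 24 h replicate 2 the change was -1.31 (adjusted p 0.0609). The call was also lost without 24 h replicate 1 or 3 or 0 h replicate 2, 3 or 4 (adjusted p 0.0501 to 0.0822 over the 6), and it held in 14 of 23 alternatives. The array with liver RNA is the lowest of the group, and Pla2g2d was not well above background on any liver array at 0 or 24 h. On the marrow arrays at 24 h the lowest signal read as well above background was -5.83 to -5.09, not far below the Pla2g2d values.

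**Figure D3:**
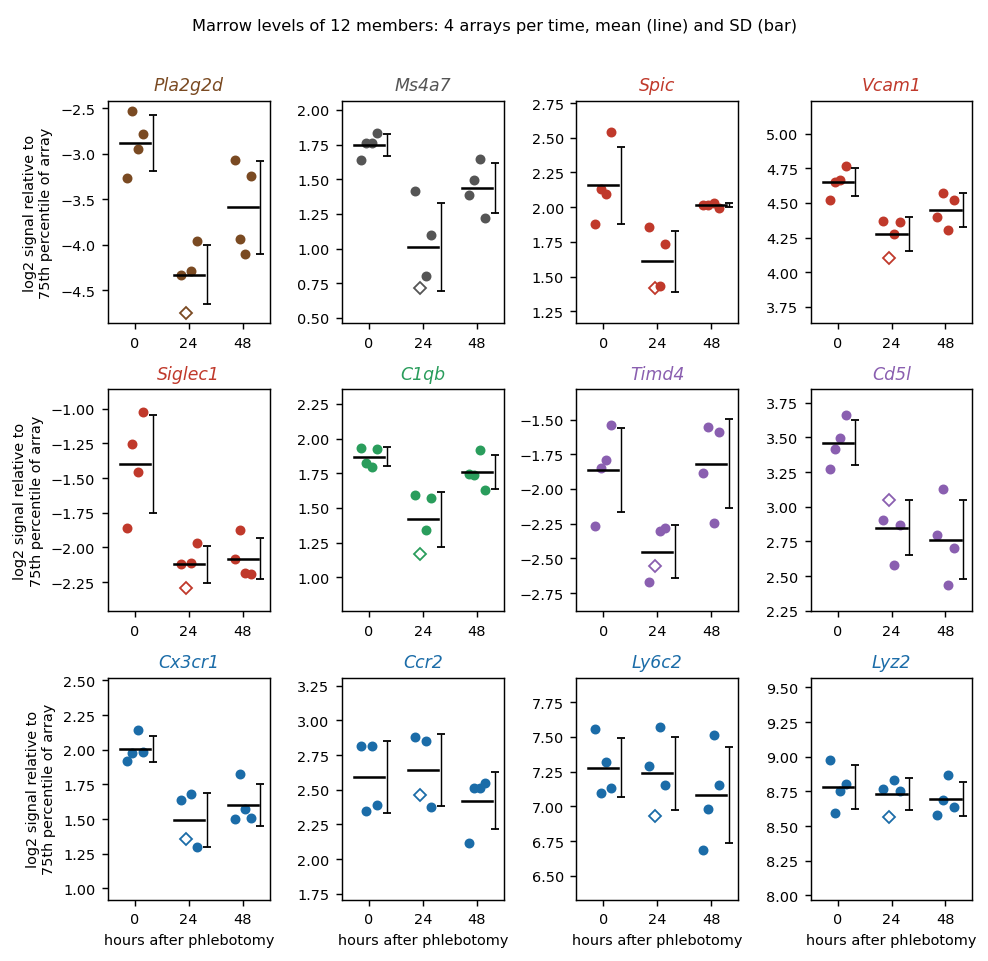
Level of 12 members on each marrow array at 0, 24 and 48 h, in log2 signal relative to the 75th percentile; lines are means, bars SD over 4 arrays, open diamonds mark marrow 24 h replicate 2, and the axes differ between genes. Pla2g2d, Ms4a7, Spic, C1qb and Timd4 are lowest at 24 h, Siglec1 and Cd5l are low at both later times, and Ccr2, Ly6c2 and Lyz2 overlap at all times.

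At 48 h the marrow pattern was smaller for some genes and kept for others. The comparison shares its 0 h arrays with that at 24 h. limma called 0 of 30 members, against 1.23% of all genes. At an unadjusted p under 0.05 there were 11 members, against 16% of all genes. The arrays did not overlap for 9 members, all lower, against 4.69% of all genes lower and 8% higher. The median change was -0.22, with 28 of 30 negative, and that of all genes was 0.00. The count of 9 was 3 with each array's median as the scale and 14 without marrow 0 h replicate 1. The share of all genes without overlap was not computed for these settings.

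Cd5l and Siglec1 came closest to a call. Cd5l lay at 2.79, 3.13, 2.43 and 2.70 at 48 h, all below the arrays at 0 h, with a change of -0.70 (SE 0.15, adjusted p 0.0518). Over 23 alternatives its adjusted p ran from 0.0126 to 0.171, with 7 under 0.05. Siglec1 lay at -2.09, -1.87, -2.18 and -2.19, a change of -0.68 (SE 0.16, adjusted p 0.0646), while its second probe gave 0.06. Cx3cr1 (-0.40), Ly86 (-0.30), Adgre1 (-0.34), Cd68 (-0.34), Csf1r (-0.24) and Irf8 (-0.14) also did not overlap, nor did Folr2.

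Folr2 lay at -3.03, -2.11, -2.91 and -2.66 at 0 h and at -3.28, -3.31, -3.47 and -3.46 at 48 h. Its arrays at 48 h are low and close together, and the change was -0.70 (SE 0.27, adjusted p 0.235). Ccr2, Ly6c2, Itgam, Lyz1 and Lyz2 had changes of -0.17, -0.19, -0.08, -0.11 and -0.09, all with overlap.

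Between 24 and 48 h no member passed the test, and the arrays of Spic, C1qb and Timd4 at 48 h lay above those at 24 h. limma called 0 of 30 members, with a smallest adjusted p of 0.563, against 0.00467% of all genes, and 6 members had an unadjusted p under 0.05, against 7.68% of all genes. Spic lay at 2.01 ± 0.01 (SD, n = 4) at 48 h, with every array above the 4 arrays at 24 h, a difference of 0.40 (SE 0.14). Timd4 lay at -1.88, -1.55, -2.25 and -1.59 at 48 h, 0.63 (SE 0.18) above 24 h, and C1qb at 1.75, 1.73, 1.92 and 1.63, 0.34 (SE 0.10) above it. These 3 genes and Folr2, which was lower by 0.53, were the members without overlap; over all genes 2.8% were higher and 0.902% lower in this way. Without marrow 24 h replicate 2 the same 4 genes did not overlap, at 0.34, 0.60, 0.26 and -0.23 for Spic, Timd4, C1qb and Folr2.

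Against 0 h, the changes at 48 h were -0.14 for Spic, 0.04 for Timd4 and -0.11 for C1qb, each with overlap. Vcam1 had a change of -0.20 (adjusted p 0.309) and Ms4a7 one of -0.31 (adjusted p 0.325).

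Among the Kupffer genes in marrow, Vsig4 was low but well above background on 11 of 12 arrays. Clec4f stayed near background apart from the array with liver RNA. Clec4f was well above background on 1 of 12 marrow arrays, that one, at 0.20, and lay between -7.24 and -5.12 on the others. Vsig4 lay at -4.78, -4.35, -3.14 and -3.08 at 0 h, at -3.68, -2.07, -4.64 and -3.74 at 24 h and at -3.58, -4.36, -6.05 and -3.58 at 48 h. Its highest value is on the same array. The change at 24 h was 0.30 with it and -0.18 without it (adjusted p 0.886 and 0.954).

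**Figure D4:**
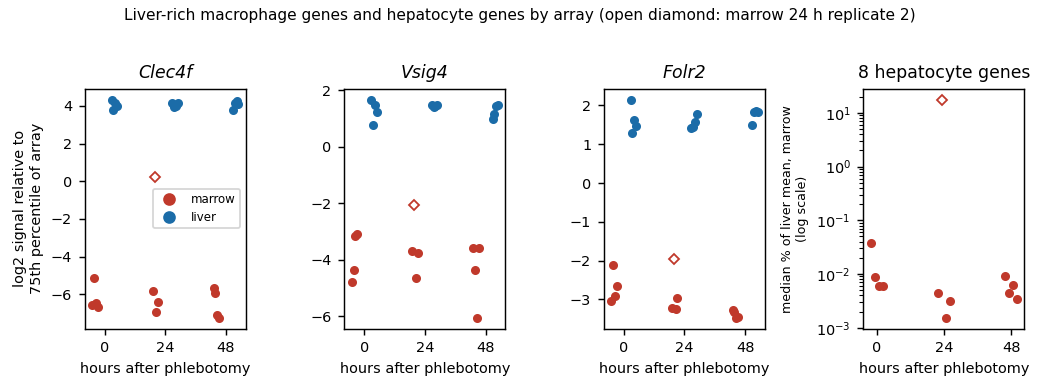
Levels of Clec4f, Vsig4 and Folr2 on each marrow (red) and liver (blue) array by hour, in log2 signal, and the median of 8 hepatocyte genes on each marrow array as a percent of their liver mean (log axis). The open diamond, marrow 24 h replicate 2, is at 17.6% for hepatocyte genes and is the highest marrow array for all 3 genes.

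In liver, 30 of the 31 members were tested (Pla2g2d was not), and limma called 0 of them at either time against 0 h, and 0 from 24 to 48 h. Over all 19648 genes it also called 0 (0%) in each comparison. Before adjustment 1, 0 and 1 members had a p under 0.05, against 10.9%, 6.44% and 7.63% of all genes. In the main setting no member had groups without overlap, against 5.53% of all genes at 24 h, 4.2% at 48 h and 3.66% between these times. The median change of the members was 0.12 at 24 h, with 21 of 30 positive, and -0.01 at 48 h, with 14 positive; that of all genes was -0.02 at both times.

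The Kupffer genes did not differ between times beyond the spread between arrays. Clec4f lay at 4.15, 3.93, 4.00 and 4.16 at 24 h and at 3.78, 4.15, 4.27 and 4.12 at 48 h, all within the range at 0 h. Its changes were -0.01 (95% interval -0.29 to 0.28) and 0.02 (-0.27 to 0.30). Vsig4 was at 1.29 ± 0.39 (SD, n = 4) before phlebotomy, 1.45 ± 0.03 a day later and 1.27 ± 0.23 on the next day, changes of 0.17 (-0.21 to 0.54) and -0.01 (-0.39 to 0.37).

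Ccr2 was the liver member with the largest change. It lay at -3.14, -3.12, -2.84 and -3.07 at 0 h, at -2.03, -1.83, -2.86 and -2.74 at 24 h and at -2.85, -3.03, -3.05 and -3.14 at 48 h. The arrays at 24 h are split, with replicates 1 and 2 high and replicates 3 and 4 nearer to 0 h. The change at 24 h was 0.68 (SE 0.20, adjusted p 0.345; exact permutation p 0.0571, with 3 of 4 arrays above those at 0 h), and 48 h lay 0.65 below 24 h. Cx3cr1 was high on the same replicates, at -1.64, -0.91, -2.49 and -2.27 at 24 h, with a change of 0.57 (SE 0.33, adjusted p 0.535).

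Other liver members had small changes. The C1q chains had changes of 0.15 to 0.17 at 24 h and 0.06 to 0.08 at 48 h. Spic had changes of -0.25 and -0.11, Vcam1 of 0.26 and -0.05, and Siglec1 of -0.11 and 0.25, all with overlap. Ly6c2, unlike Ccr2, had a change of -0.34 (adjusted p 0.530) at 24 h. Markers of other blood cells varied as well: the 8 tested of 10 neutrophil genes in liver had summed linear signals of 3.39 to 34.1 at 0 h and 6.64 to 27.0 at 24 h, and their part in the monocyte values was not tested.

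**Figure D5:**
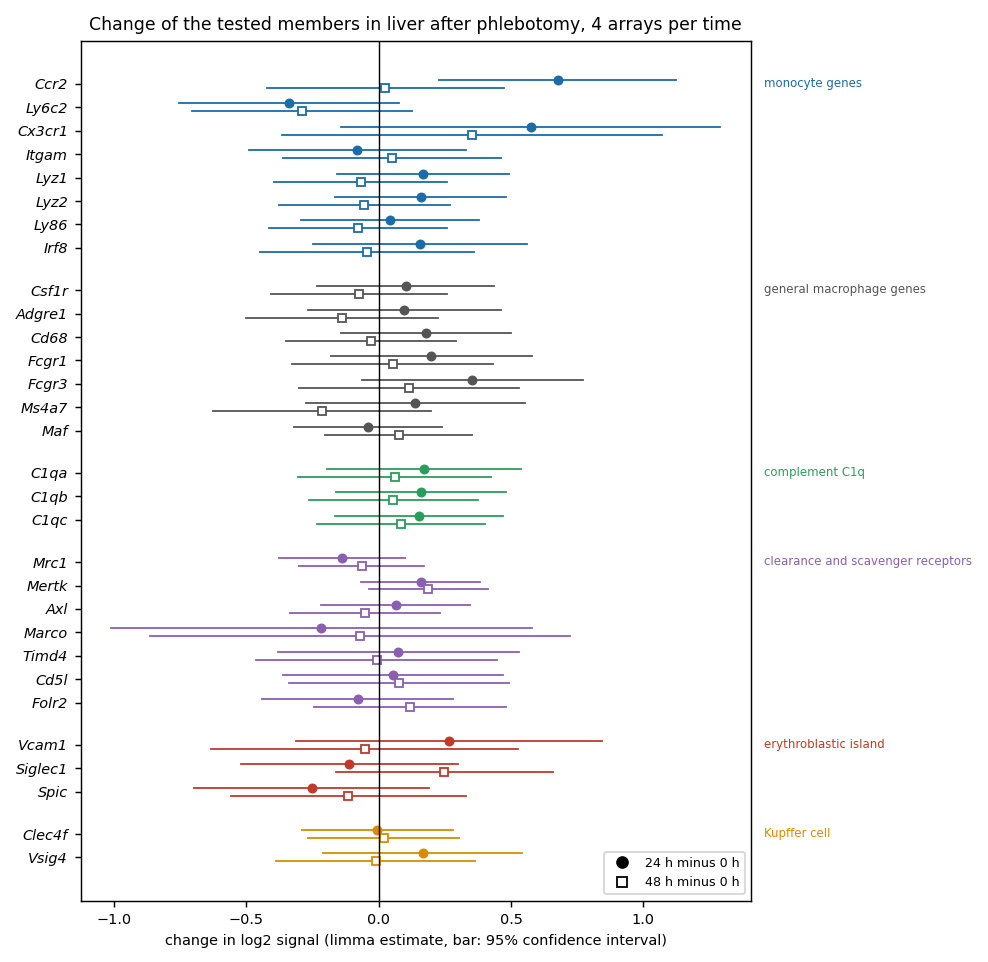
Change in log2 signal in liver at 24 h (filled circles) and 48 h (open squares) against 0 h for the 30 tested genes by role, limma estimates with 95% confidence intervals from 4 arrays per time. No gene passed an adjusted p of 0.05, Clec4f sits at 0 and Ccr2 at 24 h lies furthest from it, at 0.68.

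An interaction term fitted on all 24 arrays compared the change in marrow with that in liver. limma called 0 of 31 members at 24 h, against 0.364% of 22781 genes, and 0 at 48 h, against 0.413%. Before adjustment, 13 and 4 members had a p under 0.05, against 11.4% and 11% of all genes. The smallest adjusted p was 0.127, for Siglec1 at 48 h, where the difference, marrow minus liver, was -0.93. Without liver 48 h replicate 1 Siglec1 passed, at an adjusted p of 0.0485. This rests on its brighter probe: with the mean of its kept probes the difference was -0.35 (adjusted p 0.728). At 24 h Ms4a7 differed by -0.88 (adjusted p 0.131), C1qb by -0.61 (0.159), C1qc by -0.57 (0.203) and Cx3cr1 by -1.09 (0.213). These were -0.78, -0.53, -0.53 and -1.04 without marrow 24 h replicate 2, with 0 members called. The lower macrophage genes of marrow at 24 h are thus not shown to differ from those of liver at this number of arrays.

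Related genes were counted from 3 lists. In marrow, 1 of 11 tested growth factors, receptors and chemokines was called lower at 24 h, 0 of 13 transcription factors, and 1 of 10 genes for partners of the island and digestion of red cells and nuclei. Over all genes 1.01% were called at 24 h, 0.463% lower. Il34, the second ligand of Csf1r, lay at -0.64, -0.48, -0.47 and -0.22 at 0 h and at -1.26, -1.43, -0.93 and -1.14 at 24 h. It fell by 0.74 (SE 0.12, adjusted p 0.0143), and its other probe had a change of -0.72. Replicate 2 is the lowest array at 24 h, and without it the change was -0.66 (adjusted p 0.0341). At 48 h it lay at -0.65, -0.50, -0.69 and -0.64, a change of -0.17.

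Hmox1, heme oxygenase 1, which opens the heme ring in macrophages that digest red cells, lay at 4.19, 4.58, 4.64 and 4.83 at 0 h. It was at 3.01, 2.96, 3.51 and 3.52 at 24 h, below all arrays at 0 h, and at 3.92, 3.99, 3.46 and 3.95 at 48 h. It fell by 1.31 (SE 0.18, adjusted p 0.00687) at 24 h, and the change at 48 h was -0.73 (adjusted p 0.0841). Replicate 2 is again the lowest array at 24 h, and without it the change was -1.21 (adjusted p 0.0198). Icam4, a red cell adhesion molecule that holds erythroblasts to island macrophages, was the 1 called gene of its list at 48 h, when 1.23% of all genes were called. It rose by 0.59 (SE 0.13, adjusted p 0.0485), from 2.42, 2.45, 2.54 and 2.75 to 3.20, 3.26, 2.97 and 3.10. The call is close to the threshold. Leaving out marrow 24 h replicate 2 (adjusted p 0.0438) was the only alternative run for single related genes. All 6 erythroid marker genes also had positive changes at 48 h, with a median of 0.34, and their part in the Icam4 result was not tested. In liver 0 of the tested genes of these lists were called at 24 or 48 h, with 5 and 3 of 34 at an unadjusted p under 0.05, against 10.9% and 6.44% of all genes.

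Markers of other cells were counted in marrow too, and 0 genes of these lists were called at 24 or 48 h, against 1.01% and 1.23% of all genes. At 24 h the 6 tested of 6 B-cell genes had a median change of -0.68. Of these, 5 had an unadjusted limma p under 0.05, against 12.6% of all genes. The summed linear signals of the 6 were 27.6 to 41.8 against 40.9 to 69.5 at 0 h. The 7 tested of 8 dendritic cell genes had a median change of -0.26 (sums of 164 to 184 against 166 to 186), and the 5 tested of 6 T and NK cell genes one of -0.25 (13.9 to 21.6 against 17.6 to 26.6). The 10 neutrophil genes had a median of -0.08 and the 6 of sinusoidal endothelium one of -0.03. All these values at 24 h include marrow 24 h replicate 2, the array with liver RNA. Its T and NK cell sum was the lowest at 24 h, 13.9, against 17.3 to 21.6 on the other arrays. Its B-cell sum was 28.9, against 27.6 to 41.8 on the others. Erythroid genes had a median of -0.02 at 24 h and 0.34 at 48 h, when their sums were 1219 to 1468 against 1054 to 1394 at 0 h. B and dendritic cells also express some members, among them Irf8, Ly86 and Pla2g2d, and the part of these cells in the marrow results was not tested.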

How the data were processed

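RNA of liver and of marrow, each from 4 mice per time, was labelled with Cy3 and read on 24 one-colour Agilent arrays. Spot intensity is the processed signal of Agilent Feature Extraction 10.10.1.1, per the submitters' processing notes and the deposited scanner files. The authors' deposited value table, on a log2 scale and normalized per tissue with limma per those notes, served only as an alternative, and its centring is not given in the sources used here. Control spots (3671) were left out. log2 intensity minus each array's 75th percentile was averaged over spots of a probe. A probe was kept where every array of some group read it well above background, and the brightest kept probe stood for a gene. Names were updated through RefSeq (GRCm38.p6): 32994 probes by accession, 10224 by symbol, 520 by synonym, and 12867 kept the file's name.

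limma 3.58.1 (lmFit, eBayes; R 4.3.3) fitted the 12 arrays of a tissue together, and all 24 for tissue levels and interactions, with Benjamini-Hochberg adjustment over all genes at 0.05. Exact two-sided permutation tests compared 4 with 4 arrays. The code was tested on simulated data. Within a tissue, p-values measure the spread between arrays of separate mice. In the fits over both tissues, liver and marrow arrays may share mice, which the sources used here do not settle. The number of arrays limits precision.

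The members and lists were chosen with earlier results of these data known. By rule, all 31 members are accounted for, array values are printed for called members and for island, Kupffer and leading monocyte genes, and related genes are named only if called. Values of other members were added where a result turned on them. Alternatives were quantile and median scaling, normexp (offset 50), no filter, the mean of kept probes, slide and replicate blocks, array weights, trend with robust fitting, only the groups compared, each array left out, and the authors' values.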

Additional observations from a re-analysis of the deposited data

Results flagged for a closer look

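In 5 of 180 groups of 4 arrays, 1 array lay far from the other 3 (Dixon's gap test, which chance passes in about 1 in 20 groups). That share is below the rate of chance. In marrow at 48 h, Ccr2 was 2.11 on replicate 1 and 2.51 to 2.55 on the others, and Mertk was -0.91 on replicate 3 and -0.53 to -0.48 on the others.

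The other 3 are on 1 array, liver 48 h replicate 1. There Cx3cr1 was -1.67 (others -2.21 to -2.14), Timd4 was -1.42 (others -0.77 to -0.67) and Folr2 was 1.50 (others 1.82 to 1.85). The monocyte receptor is high and both resident macrophage receptors are low on that array, which is a description only and was not tested.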

How the results depend on the processing

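At 24 h in marrow 2 members were called. The count was 4 with quantile normalization and with normexp, 5 with trend and robust fitting and with array weights, 1 with each array's median, with the slide block and with only the groups compared, and 0 with no filter and with the replicate block; leaving out single arrays gave 0 to 2. At 48 h in marrow 0 were called, but 1 with normexp, 2 with the authors' table and with trend and robust fitting, 5 with array weights and 0 to 1 with single arrays left out. Calls over all genes moved too. Of 21399 genes at 24 h, 223 were called with quantile normalization, 226 with normexp, 286 with trend and robust fitting and 172 with the slide block. With only the groups compared, 153 of 21245 were. At 48 h 238 were called with normexp, 391 with trend and robust fitting and 265 of 23003 with the authors' table. The interaction at 48 h gave 0 to 1 with single arrays left out.

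The 15 members without overlap at 24 h became 9 with each array's median and 15 to 17 without single arrays, and the 9 at 48 h became 3 and 9 to 14. In liver, 1 member lay higher without overlap at 24 h with quantile or median scaling, normexp or the authors' table. From 24 to 48 h in liver 1 member lay lower in these settings, or 2 with normexp. Shares of all genes without overlap were computed only for the main setting and without marrow 24 h replicate 2. Over all genes, calls in marrow ran from 217 to 69 (no filter), 126 (replicate block), 142 (median) and 439 (array weights) at 24 h, and from 264 to 100, 100, 123 and 812 at 48 h. Csf1r, -0.03 between tissues, reversed to 0.52 with quantile normalization. Replicate numbers do not pair the times of a tissue: correlations between times of same-numbered arrays ran from -0.17 to 0.14 (liver) and from -0.23 to 0.20 (marrow). Liver and marrow arrays of the same time and number had a median correlation of 0.098 (0.0032 to 0.15), other numbers -0.035 (-0.12 to 0.07), and whether they come from 1 mouse is not given in the sources used here. With replicate and time as a random replicate block, 0 members were called in the interaction at either time and 26 between tissues. The causes were not tested. Among single genes, 7223 alternative values kept their side of the threshold or their spread, 32 passed it, 29 fell short, 17 moved and 1 reversed. Clec4f in marrow and Pla2g2d in liver were limited by background.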
